A study of Mus musculus with 12 samples.

Results

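The genes described here are 42 genes of the contractile apparatus and the actin cytoskeleton, taken by symbol from a table of 25203 genes in primary cultures of mouse intestinal stromal cells. The list holds actins, the proteins that bind and regulate actin filaments, myosin chains, the enzymes that switch myosin on and off, the scaffolds of stress fibres, and intermediate filament proteins. All 42 were above 0 and passed the filter for testing, which was at least 1 FPKM in at least 3 of 12 libraries (12641 genes). FPKM is fragments per kilobase of transcript and per sequencing depth, a level per length. RNA was read from 4 groups of 3 libraries. All cultures were labelled as primary Pdgfra-lo-H2B-GFP cells, after a nuclear GFP reporter of the fibroblast gene Pdgfra that was low in them. Receptor-intact cultures received vehicle (Vehicle) or the added cytokine TGFB1 (TGFB1), and cultures with a knockout of Tgfbr2 received vehicle (Vehicle_Tgfbr2KO) or TGFB1 (TGFB1_KO). The dose, the duration, the animals' age, the way in which Tgfbr2 was deleted and whether the 3 libraries of a group came from separate animals are not given in the sources used here. P-values therefore measure the spread between libraries, which may be technical.

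TGF-beta ligands bind the type 2 receptor, the product of Tgfbr2, which activates a type 1 receptor that in turn phosphorylates SMAD transcription factors. In fibroblasts TGF-beta is known for the passage to myofibroblasts, cells with thick actin bundles called stress fibres that pull on the matrix. Stress fibres consist of actin filaments wrapped by tropomyosin and calponin, joined by alpha-actinin and moved by non-muscle myosin. Myosin pulls when its light chain is phosphorylated by myosin light chain kinase, and relaxes when myosin phosphatase removes the phosphate. Many of these genes are known targets of serum response factor, which binds a DNA element called the CArG box and whose co-activators sense the pool of free actin.

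The 12 libraries held 498669 to 569510 FPKM in sum, and the number of reads is not given in the sources used here. Low values placed the depth of the TGFB1 libraries at 0.747 to 0.801 of that of Vehicle replicate 1, against 0.959 to 1.04 in Vehicle. Tgfbr2 itself was listed at 48.0, 38.2 and 78.8 FPKM in Vehicle and 56.5, 70.6 and 74.6 in TGFB1. In the knockout cultures it was listed at 27.0, 35.2 and 41.9 FPKM in Vehicle_Tgfbr2KO and 31.6, 38.0 and 62.4 in TGFB1_KO. The knockout groups overlapped the intact groups, and since the deleted part of the gene is not given, a level over the whole gene does not check the labels. Fibroblast collagens were high in all libraries (Col1a1 at 845 to 4291 FPKM). Pdgfra fell with TGFB1, from 137, 125 and 165 to 13.8, 19.7 and 12.1 FPKM (log2 change -3.16 (SE 0.38, adjusted p = 0.000197)). Of 12 fibroblast markers, Pdgfra among them, 4 fell with TGFB1 in intact cultures and none rose, against 14.6% and 17.3% of all tested genes. Their summed FPKM was 4810.5 to 9521 in Vehicle and 6641 to 7714 in TGFB1. Replicate 3 of Vehicle and of TGFB1_KO stood apart in the 42 genes. Replicate 3 was the lowest of its group for 34 of the 42 genes in Vehicle (81%, against 42% of all tested genes) and for 38 in TGFB1_KO (90.5%, against 42.4%). It was the lowest for 22 in Vehicle_Tgfbr2KO (52.4%, against 34%) and for 17 in TGFB1 (40.5%, against 32.8%). In Vehicle and TGFB1_KO replicate 3 the summed FPKM of 12 fibroblast markers was the highest of its group, at 9521 against 5577 and 4810.5 in Vehicle and at 7316 against 2851.5 and 3795 in TGFB1_KO. The part of this in the results below was not tested, and without the 4 libraries of replicate 3 the TGFB1 comparison called 18 of the 42 genes up and 1 down, with Flna lost and Flnc gained.

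In Vehicle the levels of the 42 genes spanned from 2.29 ± 1.29 FPKM (SD, n = 3) for Des, the muscle intermediate filament desmin, to 2592 ± 394 for Actb, the cytoplasmic beta-actin. The next highest were the cytoplasmic gamma-actin Actg1 at 2191 ± 187, the smooth muscle alpha-actin Acta2 at 1875 ± 193 and the myosin light chain Myl6 at 1826 ± 15.2. Tagln (transgelin, SM22) stood at 1753 ± 196, Tpm1 (tropomyosin 1) at 1733 ± 143 and Actg2, the smooth muscle gamma-actin, at 1564 ± 183. Neighbours in this order overlapped between libraries, so Acta2, Myl6, Tagln and Tpm1 cannot be ranked among themselves. Other low genes were the synaptopodin 2 gene Synpo2 at 5.94 ± 0.431 and the phosphatase subunit Ppp1r12a at 27.2 ± 1.90. Together the 42 genes made up 5.05% ± 0.386 (SD, n = 3) of all FPKM in Vehicle and 5.89% ± 0.126 in TGFB1. In the knockout cultures their share was 5.05% ± 0.0935 in Vehicle_Tgfbr2KO and 4.75% ± 0.674 in TGFB1_KO. The TGFB1 share lay above all other groups' libraries.

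TGFB1 raised 18 of the 42 genes in receptor-intact cultures and lowered 1. The largest rise was in Pdlim1, a PDZ and LIM domain scaffold of stress fibres, at 2.89-fold. Tpm1, Tagln, Smtn and Myh9 followed at 1.85-fold, 1.76-fold, 1.65-fold and 1.60-fold. The fall was in Ppp1r14a, the inhibitor of myosin phosphatase known as CPI-17, which dropped from a mean of 43.4 to 7.60 FPKM. Of the 18 rises, 12 had a log2 change of at least 0.5, and 1 of these, that of Pdlim1, reached 1. The 19 called genes are 45.2% of the list, against 31.9% of all tested genes. By direction, 42.9% of the list rose and 2.38% fell, against 17.3% and 14.6% of all tested genes. The median log2 change was 0.26 in the list and 0.02 over all tested genes. Changes are on the scale of log2(FPKM + 1), folds are ratios of mean FPKM, and calls have a Benjamini-Hochberg adjusted p under 0.05 from limma over all tested genes. The groups did not overlap for 26 genes that were higher in TGFB1 (26.1% of all tested genes did the same) and for 2 that were lower (21.8%). With a replicate block, a separate term for the replicate number in each genotype that pairs the libraries, 23 rose and 3 fell, against 21.6% and 18.7% of all tested genes (40.4% in either direction). When each library was rescaled to the same sum of 1000000 FPKM, the median over all genes moved from 0.02 to -0.11. The list then had 14 genes up and 2 down, and all tested genes 1166 up and 2827 down in place of 2184 and 1849. In bulk RNA, a change in the share of cells of a type and a change in RNA per cell cannot be told apart.

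**Figure D1:**
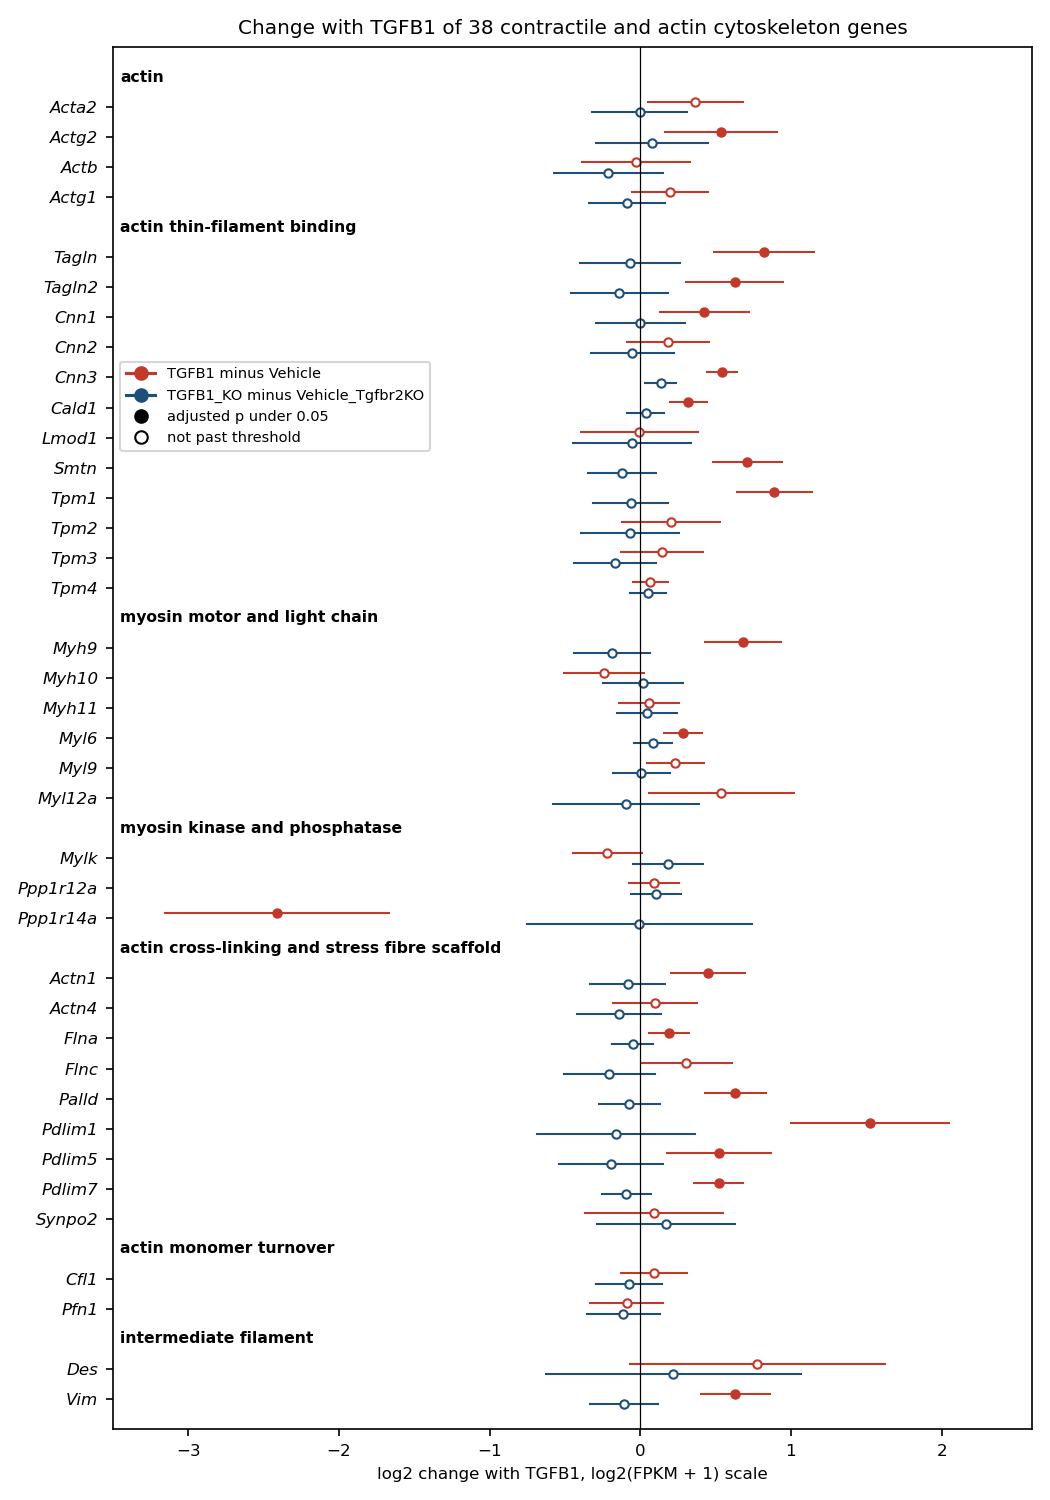
The log2 change with TGFB1 of 38 of the 42 genes is plotted on the horizontal axis (log2(FPKM + 1) scale), in red for receptor-intact and in blue for knockout cultures, with lines for the 95% confidence interval and filled points for an adjusted p under 0.05. In red, 17 filled points lie to the right of 0 and only Ppp1r14a to the left, and no blue point is filled.

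The sequences just before the transcription start of 5 genes show how differently the list's promoters are built. They were chosen for Acta2 as the usual myofibroblast marker, Cnn2 as a gene with a full CArG box, Tpm1 and Pdlim1 as genes that rose, and Ppp1r14a as the gene that fell. Each is the 250 bases before the start in RefSeq's promoters of GRCm38.p6, which is not the build mm9 of the deposited table, read 5′ to 3′ on the gene's strand. Capitals mark matches on either strand to the CArG box, to a CArG-like element (the same with exactly 1 G or C in its A/T core, so never both), to the SMAD element and to the TEAD element. The SMAD element is CAGAC. The TEAD element is CATTCC, and their reverse complements count as well.
Acta2, chr19:34255374-34255623, minus strand: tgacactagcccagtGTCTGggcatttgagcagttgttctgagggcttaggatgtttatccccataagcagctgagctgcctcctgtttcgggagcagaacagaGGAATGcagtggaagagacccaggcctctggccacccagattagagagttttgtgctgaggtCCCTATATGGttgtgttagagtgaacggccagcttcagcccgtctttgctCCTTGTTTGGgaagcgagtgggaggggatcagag
Cnn2, chr10:79988350-79988599, plus strand: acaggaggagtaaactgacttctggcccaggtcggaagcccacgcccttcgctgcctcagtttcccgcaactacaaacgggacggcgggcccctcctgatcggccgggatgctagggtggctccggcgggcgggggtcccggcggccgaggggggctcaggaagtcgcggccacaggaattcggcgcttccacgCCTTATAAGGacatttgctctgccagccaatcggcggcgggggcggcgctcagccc
Tpm1, chr9:67049214-67049463, minus strand: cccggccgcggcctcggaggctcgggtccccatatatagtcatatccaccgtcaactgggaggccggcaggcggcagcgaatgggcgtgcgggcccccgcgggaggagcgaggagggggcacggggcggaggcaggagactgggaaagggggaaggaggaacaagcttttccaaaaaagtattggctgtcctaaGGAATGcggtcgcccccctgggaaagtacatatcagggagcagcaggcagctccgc
Pdlim1, chr19:40271617-40271866, minus strand: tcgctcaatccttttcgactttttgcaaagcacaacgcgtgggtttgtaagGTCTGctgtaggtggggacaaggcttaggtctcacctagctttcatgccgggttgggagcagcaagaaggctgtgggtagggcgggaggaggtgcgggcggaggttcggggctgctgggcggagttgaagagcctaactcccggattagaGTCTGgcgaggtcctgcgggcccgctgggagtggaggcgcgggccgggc
Ppp1r14a, chr7:29289070-29289319, plus strand: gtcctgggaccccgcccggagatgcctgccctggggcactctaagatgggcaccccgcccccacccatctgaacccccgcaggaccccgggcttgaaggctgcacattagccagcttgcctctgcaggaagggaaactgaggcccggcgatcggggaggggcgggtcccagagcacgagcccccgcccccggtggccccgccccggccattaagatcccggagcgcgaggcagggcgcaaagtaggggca
Acta2 held CArG-like elements 84 and 34 bases before the start, a TEAD element and a SMAD element. Cnn2 held a CArG box 56 bases before the start. Tpm1 held only a TEAD element, Pdlim1 a pair of SMAD elements and Ppp1r14a none of these letters. In the window from 250 bases before to 50 after the start, 37 of the 42 genes were matched to 45 promoters, and those of Actg2, Actb, Tagln, Myh11 and another gene were not used here. A CArG box was found for 4 genes (Actg1, Cnn2, Myl6 and Myl9), and 1.63% of all 32851 promoters held one. A CArG-like element was found for 5 genes (Acta2, Flnc, Myl12a, Myl9 and Tpm3), against 8.5% of all promoters. Of the 8 genes with either, 1 rose with TGFB1 (Myl6) and 7 were not called, among 16 and 20 genes of those classes with a promoter. The TEAD element was found for 14 genes and in 33.3% of their promoters, against 14.7% of all, and the SMAD element for 16 genes and in 42.2%, against 49.6%. A match is only a run of letters and is not a measured binding site.

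Among the 4 actins only the smooth muscle gamma-actin Actg2 rose. Its levels were 1762, 1529 and 1400.5 FPKM in Vehicle and 2413, 2239 and 2128 FPKM in TGFB1. All TGFB1 libraries lay above all Vehicle libraries, and the log2 change was 0.54 (SE 0.17, adjusted p = 0.0338). Actg2 was no longer called when Vehicle replicate 2 or 3 or any TGFB1 library was left out (adjusted p 0.0605 to 0.106), or after rescaling to equal sums (0.0791). Acta2, the actin by which myofibroblasts are usually recognised, was listed at 2022, 1945 and 1657 FPKM in Vehicle and 2684, 2294 and 2265 FPKM in TGFB1. The groups did not overlap, but the lowest TGFB1 library lay close above the highest Vehicle library, and the log2 change of 0.37 (SE 0.14, adjusted p = 0.0739) missed the threshold. With the replicate block the Acta2 change passed it (adjusted p = 0.0383). Actb, the actin of every cell's cortex, was listed at 2716, 2909 and 2150.0 FPKM in Vehicle and 2431, 2661 and 2473 FPKM in TGFB1. These overlapped, with a log2 change of -0.03 (SE 0.16, adjusted p = 0.916). Actg1 had a log2 change of 0.20 (SE 0.11, adjusted p = 0.215) with higher values in all TGFB1 libraries. In mouse transcripts cut into pieces of 31 bases, 1.39% of Acta2 and 1.21% of Actg2 pieces also occurred in other genes, against 23.6% of Actb and 40.2% of Actg1 pieces, so the levels of Actb and Actg1 are less certain.

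Of 12 proteins that bind along the thin filament, 7 rose and none fell. Tropomyosin 1, which lies along the filament and controls the access of myosin, was listed at 1726, 1879 and 1593 FPKM in Vehicle and 3085, 3301 and 3224 FPKM in TGFB1. The TGFB1 libraries of Tpm1 lay far above the Vehicle libraries, a 1.85-fold rise (log2 change 0.89 (SE 0.11, adjusted p = 0.000285)). Its relatives Tpm2, Tpm3 and Tpm4 had log2 changes of 0.20, 0.14 and 0.07 and were not called (adjusted p 0.329, 0.407 and 0.361). Transgelin, an actin-bundling protein of smooth muscle, was listed at 1922, 1799.6 and 1537 FPKM in Vehicle and 3342, 2863 and 3063 FPKM in TGFB1. That is 1.76-fold with no overlap (log2 change 0.82 (SE 0.15, adjusted p = 0.00238)), though 62.2% of Tagln pieces also occurred in other genes, nearly all in 1 unnamed gene model. Its relative Tagln2, found in many cell types, was listed at 413, 449.8 and 331 FPKM in Vehicle and 602, 609.8 and 619 FPKM in TGFB1. The Tagln2 groups did not overlap either, and the log2 change was 0.63 (SE 0.14, adjusted p = 0.00842).

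Smoothelin (Smtn), a protein of contractile smooth muscle fibres, was listed at 64.0, 61.7 and 55.1 FPKM in Vehicle and 90.9, 106 and 101 FPKM in TGFB1. Its TGFB1 values exceeded every Vehicle value by a wide margin, with a log2 change of 0.71 (SE 0.10, adjusted p = 0.000599). Of the calponins, which bind actin and inhibit myosin, Cnn1 is the smooth muscle form. Cnn1 was listed at 512, 486 and 398 FPKM in Vehicle and 659.5, 610.3 and 597 FPKM in TGFB1, without overlap but with a larger spread. The log2 change of Cnn1 was 0.42 (SE 0.13, adjusted p = 0.0335), a call lost when Vehicle replicate 2 or 3 or any TGFB1 library was left out (adjusted p 0.0568 to 0.113) and after rescaling to equal sums (0.0985). Cnn3, a calponin of non-muscle cells, was listed at 285, 286 and 289.9 FPKM in Vehicle and 411, 406 and 438 FPKM in TGFB1. These values were tight in both groups, and the log2 change of 0.54 (SE 0.05, adjusted p = 2.25e-05) had the smallest adjusted p of the 42 genes. However, 32% of Cnn3 pieces of 31 bases also occurred in other genes, so its level is less certain. Cnn2 had a log2 change of 0.18 (SE 0.12, adjusted p = 0.289). Caldesmon (Cald1), which holds myosin off the filament, was listed at 453, 443 and 428 FPKM in Vehicle and 569.5, 557 and 524 FPKM in TGFB1. The Cald1 groups did not overlap, and the log2 change was 0.32 (SE 0.06, adjusted p = 0.00186). Leiomodin 1 (Lmod1), which nucleates actin in smooth muscle, had a log2 change of -0.01 (SE 0.18, adjusted p = 0.987).

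Of 6 myosin chains, 2 rose. Myh9, the heavy chain of non-muscle myosin 2A that drives stress fibres, was listed at 384, 373 and 317 FPKM in Vehicle and 574, 584 and 563 FPKM in TGFB1. Its groups were far apart, at 1.60-fold (log2 change 0.68 (SE 0.11, adjusted p = 0.00138)). The smooth muscle heavy chain Myh11 was listed at 157, 165 and 147 FPKM in Vehicle and 154, 178 and 157 FPKM in TGFB1. Myh11 overlapped between the groups, with a log2 change of 0.06 (SE 0.09, adjusted p = 0.659) and a 95% interval of -0.14 to 0.26. Myh10, the heavy chain of non-muscle myosin 2B, had a log2 change of -0.24 (SE 0.12, adjusted p = 0.158) and was called lower with the replicate block (adjusted p = 0.0264). The essential light chain Myl6 rose by a log2 of 0.28 (SE 0.06, adjusted p = 0.00420). The regulatory light chains, on which the activating phosphate sits, were Myl9 with a log2 change of 0.23 (SE 0.09, adjusted p = 0.0600) and Myl12a with 0.54 (SE 0.22, adjusted p = 0.0861). Both were higher in every TGFB1 library than in every Vehicle library, and with the replicate block Myl12a passed the threshold (adjusted p = 0.0114), while Myl9 did not (0.0870). Myl12a shared 17.4% of its pieces with the related Myl12b.

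Of 7 enzymes and switches that govern myosin, 1 rose and 1 fell. Ppp1r14a, which blocks myosin phosphatase when phosphorylated, was listed at 52.3, 47.0 and 30.99 FPKM in Vehicle and 11.2, 7.06 and 4.51 FPKM in TGFB1. The TGFB1 values lay far below every Vehicle value, and the log2 change was -2.41 (SE 0.34, adjusted p = 0.000501). On the ratio of means this was 5.71-fold lower. The targeting subunit of the phosphatase that it inhibits, Ppp1r12a, had a log2 change of 0.09 (SE 0.07, adjusted p = 0.382). Mylk, the myosin light chain kinase, had a log2 change of -0.22 (SE 0.10, adjusted p = 0.140) and was lower in every TGFB1 library than in every Vehicle library. Mylk was called lower with the replicate block (adjusted p = 0.0199) and after rescaling to equal sums (0.0191).

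Cross-linkers and scaffolds of stress fibres rose in 6 of 9 cases with none lower. Pdlim1 was listed at 71.8, 63.9 and 47.7 FPKM in Vehicle and 207, 157 and 166 FPKM in TGFB1. The TGFB1 values lay far above every Vehicle value, and the log2 change was 1.52 (SE 0.24, adjusted p = 0.000963). Its relatives rose less. Pdlim7 was listed at 192, 195 and 191 FPKM in Vehicle and 265, 291 and 273 FPKM in TGFB1, and its log2 change was 0.52 (SE 0.07, adjusted p = 0.000532). Pdlim5 was listed at 59.6, 60.7 and 49.7 FPKM in Vehicle and 88.4, 78.3 and 78.2 FPKM in TGFB1, and its log2 change was 0.52 (SE 0.15, adjusted p = 0.0268). Neither gene overlapped between the groups, but Pdlim5 lost its call without Vehicle replicate 3 or any TGFB1 library (adjusted p 0.0515 to 0.0926) and after rescaling to equal sums (0.0647). Palladin (Palld), which anchors actin bundles at dense bodies, was listed at 164, 163 and 149 FPKM in Vehicle and 259, 243 and 236 FPKM in TGFB1. All TGFB1 values lay above all Vehicle values, with a log2 change of 0.63 (SE 0.09, adjusted p = 0.000597). The alpha-actinin Actn1, which cross-links filaments, was listed at 542, 554 and 442 FPKM in Vehicle and 693, 720.4 and 680.4 FPKM in TGFB1. Actn1 did not overlap (log2 change 0.45 (SE 0.11, adjusted p = 0.0113)), while its relative Actn4 had a log2 change of 0.10 (SE 0.13, adjusted p = 0.596). Filamin A (Flna), which joins filaments into networks, rose by a log2 of 0.19 (SE 0.06, adjusted p = 0.0345), a change not called after rescaling to equal sums (0.562) or when any library of the compared groups but Vehicle replicate 2 was left out (0.0514 to 0.115). The muscle filamin Flnc had 0.31 (SE 0.14, adjusted p = 0.113) and passed with the replicate block (adjusted p = 0.00307). Synpo2 had 0.09 (SE 0.21, adjusted p = 0.775). The turnover proteins cofilin (Cfl1), which severs filaments, and profilin (Pfn1), which loads monomers, had log2 changes of 0.09 (SE 0.10, adjusted p = 0.523) and -0.09 (SE 0.11, adjusted p = 0.570).

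Of the intermediate filament proteins, vimentin (Vim), the filament of mesenchymal cells, was listed at 1255, 1216 and 1088 FPKM in Vehicle and 1919, 1772 and 1818 FPKM in TGFB1. Vim rose 1.55-fold without overlap (log2 change 0.63 (SE 0.10, adjusted p = 0.00119)). Desmin, the muscle filament, was listed at 1.31, 1.82 and 3.75 FPKM in Vehicle and 2.31, 4.85 and 7.04 FPKM in TGFB1. Those low values were higher in TGFB1 within each replicate number but overlapped between the groups, and the log2 change of 0.78 (SE 0.38, adjusted p = 0.150) missed the threshold. With the replicate block it passed (adjusted p = 0.00340). Markers of smooth muscle outside the list were called higher or not called, and none was called lower. Of 10 such markers 5 passed the filter, and 3 of these rose, against 17.3% of all tested genes. They were Rbpms2 (log2 1.24), Kcnmb1 (0.92) and Slmap (0.17). The summed FPKM of the 10 markers was 66.4 to 104 in Vehicle and 120.9 to 134 in TGFB1. Of them, Myocd, Hhip, Pln, Casq2 and Mylk4 were at or near 0 in all 12 libraries. Smooth muscle genes of the list itself, such as Myh11, Cnn1 and Actg2, are not among these markers, and their levels are given above. Of 9 pericyte markers, Cspg4 (1.86) and Mcam (1.11) rose and Notch3 (-0.74) and Kcnj8 (-1.49) fell, with summed FPKM of 122.9 to 124.6 in Vehicle and 158 to 187 in TGFB1. Summed markers of leukocytes and macrophages ranged from 39.1 to 737 in Vehicle and from 15.4 to 405 in TGFB1. The part of these cell types in the list's changes was not tested.

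**Figure D2:**
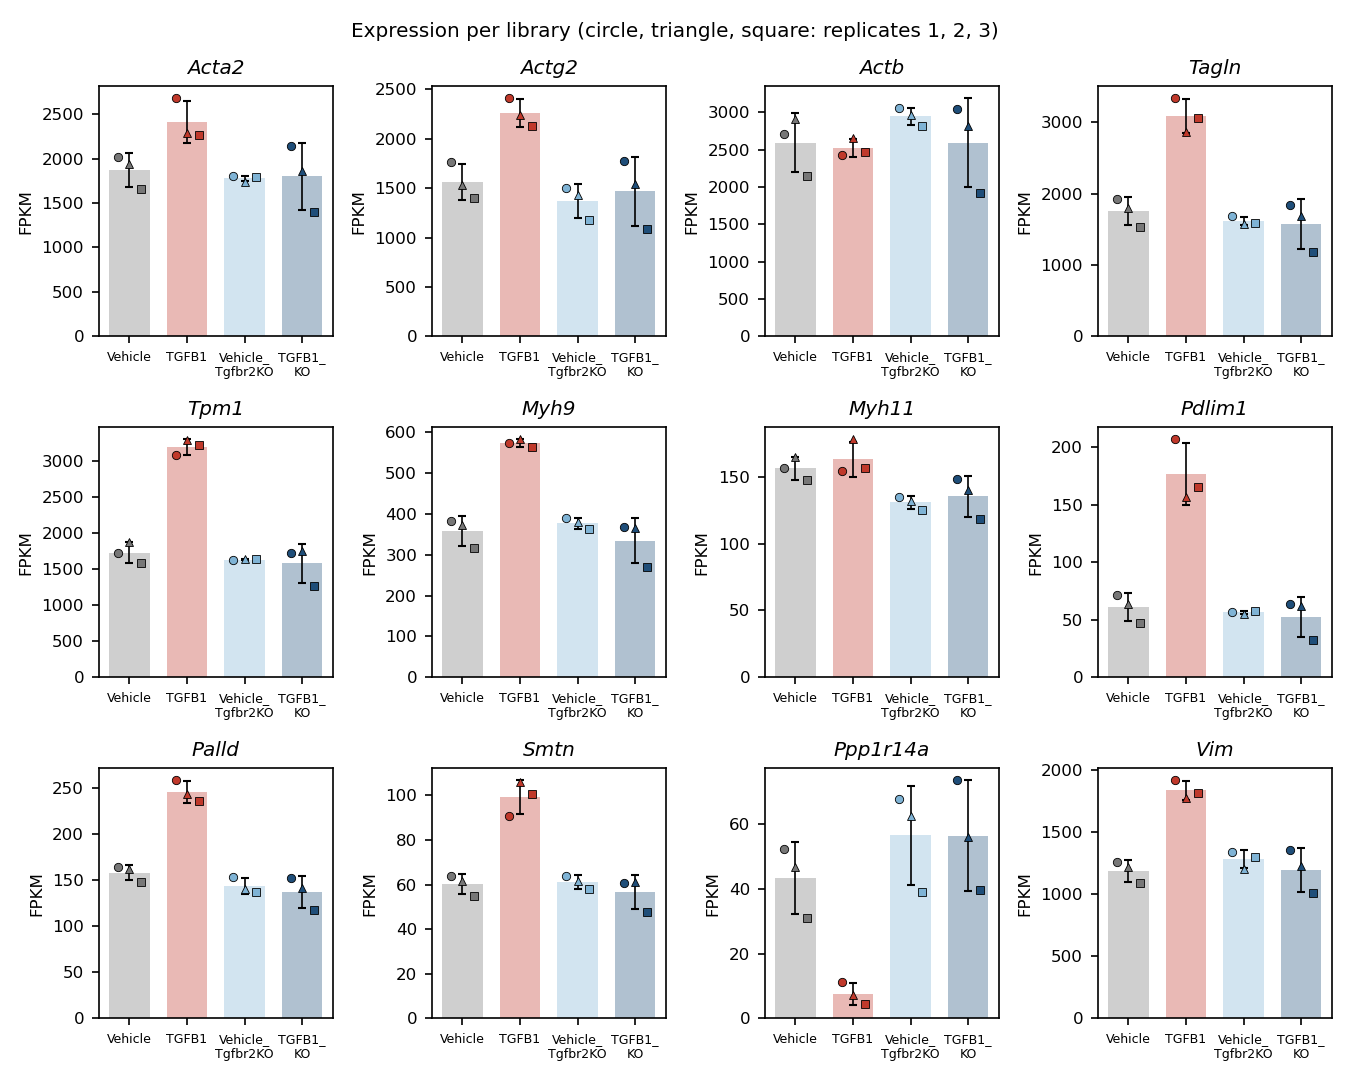
Each panel plots FPKM of 1 gene in the 12 libraries, with the 4 groups on the horizontal axis, points for libraries (circle, triangle and square for replicates 1 to 3), a bar for the group mean and a line for its SD. For Pdlim1 and Tpm1 the TGFB1 points lie above those of the 3 other groups, and for Ppp1r14a they lie below.

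Within families, TGFB1 moved the mixture as well as the level. FPKM is per length, so the members of a family can be set against each other as shares of their summed FPKM. These shares were described and not tested. With 3 libraries in a group, shares can separate without any effect, and how often they would was not computed. They are tied within a family, so a rise in 1 gene lowers the shares of the others. Tpm1 made up 54.9%, 57.1% and 55.8% of tropomyosin FPKM in Vehicle and 66.9%, 69.7% and 68.2% in TGFB1. That is a shift from 55.9% ± 1.11 (SD, n = 3) to 68.3% ± 1.4 with no overlap, and Tpm4 went from 22.4% ± 1.26 to 15.5% ± 0.537. In the knockout cultures the Tpm1 share was 54.0% ± 0.511 with vehicle and 53.3% ± 1.66 with TGFB1. Myh9 made up 64.3%, 61.9% and 60.1% of the 3 myosin heavy chains in Vehicle and 73.7%, 71.1% and 73.5% in TGFB1. The share of the smooth muscle chain Myh11 went from 27.2% ± 0.820 to 20.7% ± 0.981. The levels of Myh11 (means of 156 and 163 FPKM) and Tpm4 (692 and 726 FPKM) were not called changed. With TGFB1 in the knockout cultures Myh9 took 64.5% ± 2.71 in place of 68.0% ± 0.934, and Myh11 26.3% ± 0.762 in place of 23.6% ± 0.357. Both shares moved without overlap, in the direction opposite to that in intact cultures, but neither gene was called in the knockout cultures. The Tpm3 share also separated there, from 8.05% ± 0.193 to 7.38% ± 0.276, in the same direction as in intact cultures. Actn1 took 63.7% ± 0.320 of alpha-actinin FPKM in Vehicle and 69.2% ± 0.311 in TGFB1, again without overlap. Among the 4 actins Actg2 went from 19.0% ± 1.28 to 23.3% ± 0.715 and Actb from 31.4% ± 1.84 to 26.0% ± 1.66. In the knockout cultures the same shares went the same way without overlap but by less, Actg2 from 16.0% ± 1.34 to 17.9% ± 0.590 and Actb from 34.6% ± 0.273 to 31.7% ± 0.954. Cnn2 went from 41.99% ± 1.01 to 37.3% ± 0.238 of calponin FPKM.

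**Figure D3:**
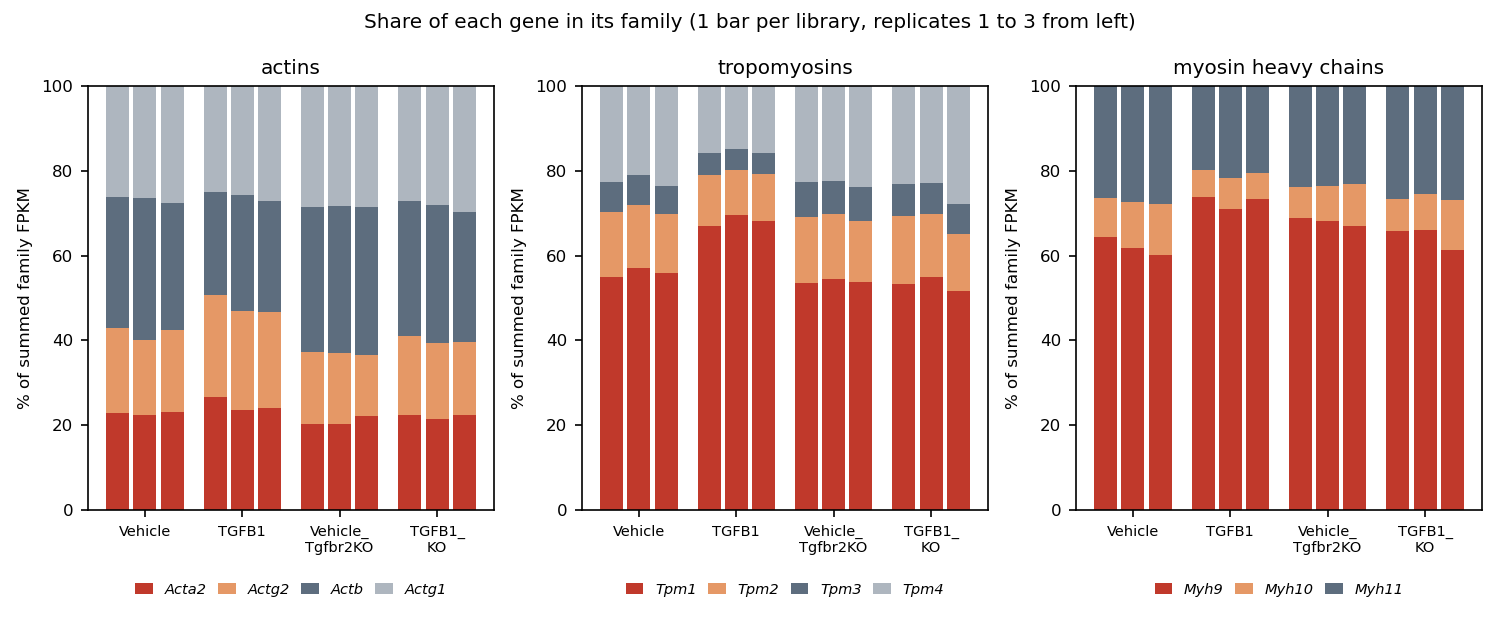
Stacked bars give, for each of the 12 libraries, the percent of the summed FPKM of the actins, the tropomyosins and the myosin heavy chains taken by each gene. The Tpm1 and Myh9 segments are tallest in the 3 TGFB1 libraries and the Tpm4 and Myh11 segments shortest there.

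In the knockout cultures TGFB1 changed none of the 42 genes past the threshold. That these cultures lacked the type 2 receptor is taken from their labels, which the listed level of Tgfbr2 does not check. No gene of all 12641 was called by limma either (0%), and 748 of them and 1 of the 42 had an unadjusted p under 0.05. The same count of 0 was found with the replicate block, where 1976 genes and 3 of the 42 had an unadjusted p under 0.05. The 19 genes called in intact cultures had log2 changes of -0.20 to 0.14 here, or 0.885-fold to 1.10-fold, and their 95% intervals reached from -0.75 to 0.74. These values rest in part on 1 library. Without TGFB1_KO replicate 3 the 19 genes had log2 changes of -0.04 to 0.28, 33 of the 42 genes had a positive change in place of 14, and the median over the 42 was 0.06 in place of -0.06, with no gene called. Cnn3 was the gene with an unadjusted p under 0.05, and the one gene of the list that was higher in every TGFB1_KO library than in every Vehicle_Tgfbr2KO library (6.6% of all tested genes did the same), and none was lower in every library (5.23%). Its values were 266, 272 and 273 FPKM in Vehicle_Tgfbr2KO and 304, 302 and 287 FPKM in TGFB1_KO, a log2 change of 0.14 (SE 0.05, adjusted p = 0.739).

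Library values show the spread behind this. Tpm1 was listed at 1627, 1638 and 1646 FPKM in Vehicle_Tgfbr2KO and 1724, 1759 and 1269 FPKM in TGFB1_KO. Tagln was listed at 1686, 1572 and 1592 FPKM in Vehicle_Tgfbr2KO and 1846, 1690.5 and 1179 FPKM in TGFB1_KO, and Tagln2 at 422, 438 and 427 FPKM in Vehicle_Tgfbr2KO and 438, 445 and 302 FPKM in TGFB1_KO. In each case TGFB1_KO replicate 3 was the lowest of the 6 libraries and the groups overlapped. For Smtn the values were 64.0, 61.8 and 57.9 FPKM in Vehicle_Tgfbr2KO and 60.8, 61.0 and 47.7 FPKM in TGFB1_KO. Cald1 was listed at 445, 438 and 439 FPKM in Vehicle_Tgfbr2KO and 470.0, 467 and 421 FPKM in TGFB1_KO. Cnn1 was listed at 424, 405 and 404 FPKM in Vehicle_Tgfbr2KO and 486, 431 and 329.6 FPKM in TGFB1_KO. In all of these the knockout groups overlapped. Pdlim1, with the largest rise in intact cultures, was listed at 57.2, 55.2 and 57.7 FPKM in Vehicle_Tgfbr2KO and 63.5, 62.1 and 32.6 FPKM in TGFB1_KO. Pdlim5 was listed at 76.9, 65.3 and 63.1 FPKM in Vehicle_Tgfbr2KO and 72.9, 63.3 and 45.5 FPKM in TGFB1_KO, and Pdlim7 at 168, 167 and 153 FPKM in Vehicle_Tgfbr2KO and 163, 159 and 135 FPKM in TGFB1_KO. Palld was listed at 154, 141 and 138 FPKM in Vehicle_Tgfbr2KO and 153, 141 and 118 FPKM in TGFB1_KO. For each of these scaffolds the knockout groups overlapped, and TGFB1_KO replicate 3 was the lowest of the 6 libraries. For Pdlim1 it lay far below the others, at 32.6 FPKM against 55.2 to 57.7 in Vehicle_Tgfbr2KO. Actn1 was listed at 451, 482 and 458 FPKM in Vehicle_Tgfbr2KO and 474, 481 and 367 FPKM in TGFB1_KO. Myh9 was listed at 389, 380.4 and 363 FPKM in Vehicle_Tgfbr2KO and 367, 365 and 271 FPKM in TGFB1_KO. Myh11 was listed at 135, 132 and 125 FPKM in Vehicle_Tgfbr2KO and 148, 140.0 and 118 FPKM in TGFB1_KO. The heavy chains overlapped between the knockout groups as the actinin did. Acta2 was listed at 1803, 1742 and 1788 FPKM in Vehicle_Tgfbr2KO and 2148, 1861 and 1396 FPKM in TGFB1_KO. Actg2 was listed at 1502, 1427 and 1173 FPKM in Vehicle_Tgfbr2KO and 1771, 1544 and 1083 FPKM in TGFB1_KO. Actb was listed at 3051, 2962 and 2821 FPKM in Vehicle_Tgfbr2KO and 3047, 2819 and 1914 FPKM in TGFB1_KO. All 3 actins overlapped between these groups. Vim was listed at 1341, 1203 and 1300.0 FPKM in Vehicle_Tgfbr2KO and 1351, 1229.5 and 1005 FPKM in TGFB1_KO. Des was listed at 0.584, 1.45 and 2.20 FPKM in Vehicle_Tgfbr2KO and 1.10, 1.81 and 2.32 FPKM in TGFB1_KO. These also overlapped. Ppp1r14a, which fell in intact cultures, was listed at 67.9, 62.7 and 39.0 FPKM in Vehicle_Tgfbr2KO and 73.8, 56.1 and 39.6 FPKM in TGFB1_KO. Each of those values lay above all 3 TGFB1 libraries of intact cultures, whose highest was 11.2 FPKM.

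**Figure D4:**
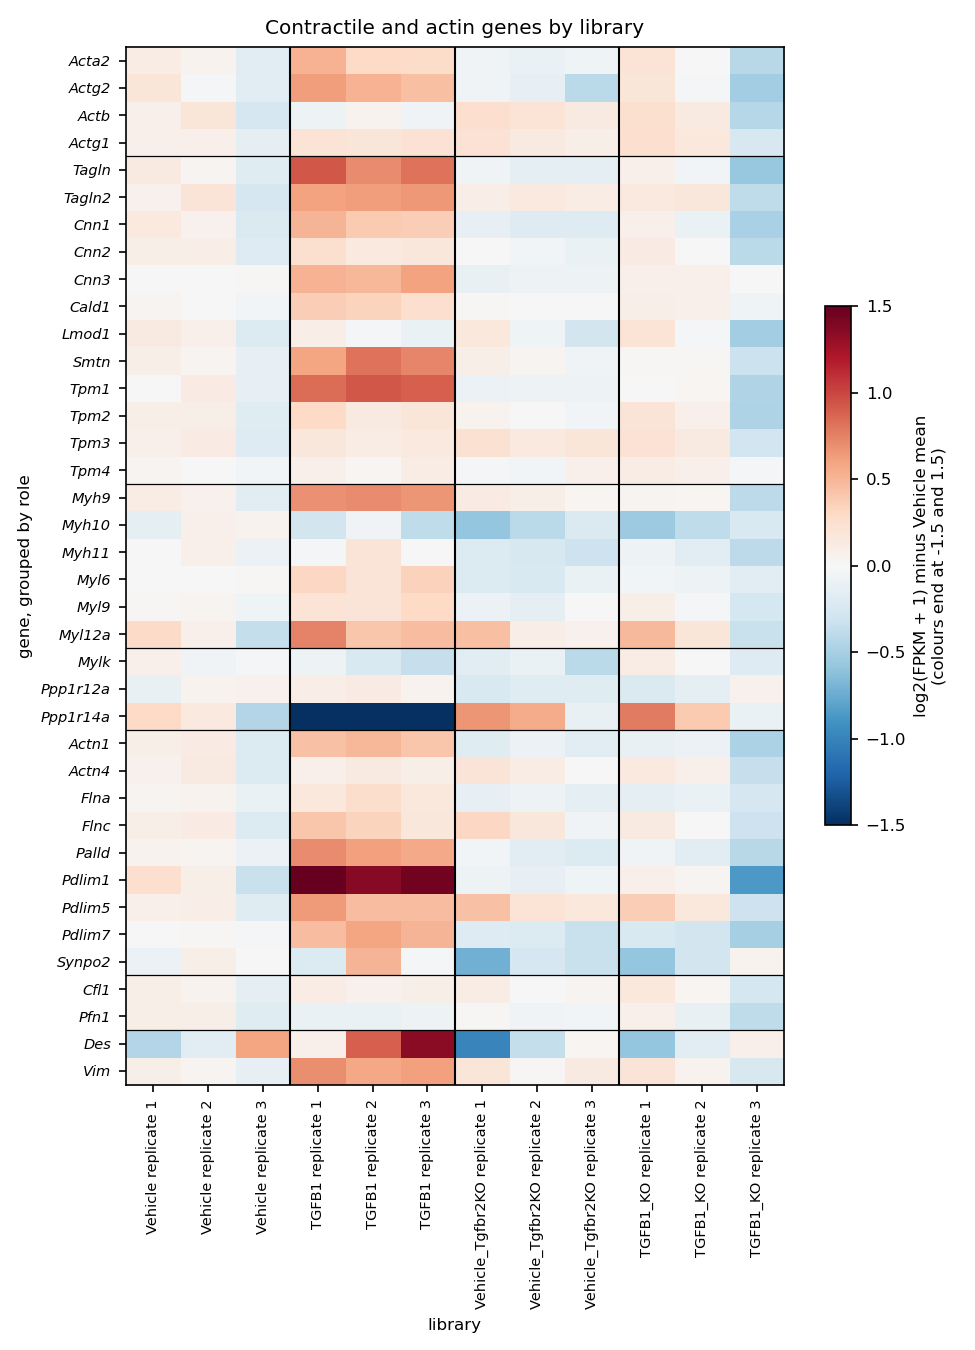
Each cell gives the log2 ratio of a gene's value in 1 library to its Vehicle mean, on the log2(FPKM + 1) scale, with 38 of the 42 genes in rows and the 12 libraries in columns. Warm colours gather in the 3 TGFB1 columns for Pdlim1, Tpm1, Tagln and Smtn, Ppp1r14a is dark there in the opposite colour, and TGFB1_KO replicate 3 is pale or cool in most rows.

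The difference between the TGFB1 responses of knockout and intact cultures, tested as an interaction, passed for 14 of the 42 genes. In 13 the response was lower in the knockout, and in 1, Ppp1r14a, it was higher, with a fall measured only in intact cultures. The share of 33.3% stands against 17.6% of all tested genes, and 31% lower and 2.38% higher against 9.26% and 8.38%. All 14 were also called in intact cultures. Since the interaction and the intact comparison share their libraries, this overlap is a description. Thin-filament proteins gave 6 of the 14: Tpm1 with a log2 difference of -0.95 (SE 0.16, adjusted p = 0.00335), Tagln with -0.89 (SE 0.21, adjusted p = 0.0175), Smtn with -0.83 (SE 0.14, adjusted p = 0.00386), Tagln2 with -0.77, Cnn3 with -0.41 and Cald1 with -0.28. Cross-linkers and scaffolds gave 5, led by Pdlim1 with -1.69 (SE 0.34, adjusted p = 0.00741) and Palld with -0.71 (SE 0.13, adjusted p = 0.00498), and Pdlim7, Pdlim5 and Actn1 had -0.61, -0.72 and -0.53. Myh9 had -0.87 (SE 0.16, adjusted p = 0.00514) and Vim -0.74 (SE 0.14, adjusted p = 0.00681). Ppp1r14a had 2.40 (SE 0.47, adjusted p = 0.00732). The calls of Tagln2, Cald1, Actn1 and Pdlim5 were lost when single libraries were left out (adjusted p 0.0507 to 0.109), and those of Cald1, Actn1 and Pdlim5 after rescaling to equal sums (0.108, 0.0701 and 0.0596). The other 5 genes called in intact cultures did not pass, among them Actg2 (-0.46 (SE 0.24, adjusted p = 0.213)), Cnn1 (-0.43, adjusted p = 0.147), Myl6 (-0.20, 0.120) and Flna (-0.24, 0.0766). With the replicate block 20 genes passed, 18 lower and 2 higher, against 14.4% and 13.7% of all tested genes (28.1% in either direction). Among the genes gained were Actg2 (adjusted p = 0.0167), Myl12a (0.0316), Mylk (0.0113), Flna (0.0345) and Flnc (0.00308), while Cnn1 did not pass (0.0636). Acta2 did not pass in either fit (-0.37 (SE 0.20, adjusted p = 0.232); 0.127 with the block).

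Without added TGFB1, knockout and intact cultures did not differ past the threshold in any of the 42 genes by limma, and 5 had an unadjusted p under 0.05: Myh10, Myh11, Myl6, Ppp1r12a and Pdlim7. Of all tested genes 1.24% were called, 0.522% up and 0.72% down. Myh10 was listed at 55.9, 64.9 and 63.4 FPKM in Vehicle and 40.5, 46.1 and 52.7 in Vehicle_Tgfbr2KO, a log2 difference of -0.40 (SE 0.12, adjusted p = 0.114). Pdlim7 had -0.24 (SE 0.07, adjusted p = 0.115) and Myh11 -0.26 (SE 0.09, adjusted p = 0.151). With the replicate block Myh10, Pdlim7, Myh11 and Mylk were called lower (adjusted p 0.0185, 0.0254, 0.0355 and 0.0484), against 13.5% of all tested genes called. That block has a separate term in each genotype, so it does not pair libraries across genotypes. It takes the spread between replicate numbers out of the error, though the difference between genotypes rests on those same replicates. The block's adjusted p-values are therefore too small for this comparison, and no conclusion is drawn from these calls. The actins Acta2 and Actg2 had log2 differences of -0.07 and -0.20 (adjusted p 0.795 and 0.510). Across groups, 3 genes were higher in every knockout library than in every intact one (Actg1, Tpm3 and Pdlim5) and 8 were lower, against 14.8% and 15.6% of all tested genes. In Vehicle_Tgfbr2KO the summed fibroblast markers were 1996 to 3402.5 FPKM, against 4810.5 to 9521 in Vehicle, and their part in these values was not tested.

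Other genes of the pathway moved in both directions. A list of 103 further actin and contractile genes, chosen by function, had 93 that passed the filter, and 33 of them rose and 11 fell with TGFB1 in intact cultures (35.5% and 11.8%, against 17.3% and 14.6% of all tested genes). Rescaled to equal sums, it had 23 up and 20 down. Proteins that cap, sever or bind monomers rose in 12 of 21 cases and fell in 1. The thymosin Tmsb4x, which holds actin monomers, was listed at 2668, 2379 and 2776 FPKM in Vehicle and 6585, 6598 and 7421 FPKM in TGFB1. The groups were far apart, at 2.63-fold (log2 change 1.4 (SE 0.08, adjusted p = 3.01e-06)). The coronin Coro1c, which acts on branched networks, rose by 0.67 and the cofilin phosphatase Ssh1 by 0.67, and the twinfilin Twf2 fell by 0.50 on the log2 scale. Members of the Arp2/3 complex and its activators, which branch filaments, rose in 4 of 11 cases with none lower, led by Arpc5 (0.43) and Arpc1a (0.31). Formins and Ena/VASP proteins, which lengthen unbranched filaments, had 2 up and 3 down of 11. Enah rose by 1.12 and Fmnl3 by 0.27, while Fmnl2 (-1.32) and Daam2 (-1.06) fell most.

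Cross-linkers and LIM or PDZ scaffolds outside the 42 genes had 6 up and 3 down of 18. Csrp2, a LIM protein of smooth muscle, was listed at 84.7, 64.1 and 86.0 FPKM in Vehicle and 424, 354 and 402 FPKM in TGFB1. Its groups were far apart, at 5.03-fold (log2 change 2.32 (SE 0.16, adjusted p = 8.61e-06)), and Pdlim4 followed with 1.33. Pdlim2, a relative of Pdlim1, fell. It was listed at 31.3, 27.5 and 23.9 FPKM in Vehicle and 6.64, 7.43 and 5.01 FPKM in TGFB1, a log2 change of -1.96 (SE 0.15, adjusted p = 1.14e-05), and synaptopodin (Synpo) fell too (-1.19). Rises and falls were thus found within the same scaffold family. Other myosins and their light chains had 3 up and 2 down of 15, with Myo1e (0.86) and Myo1d (0.66) rising most and Myl6b (-0.98) and Myo10 (-0.63) falling. The striated or other muscle genes that passed the filter all rose, 3 of 3: the skeletal actin Acta1 was listed at 22.8, 46.3 and 21.6 FPKM in Vehicle and 135, 188 and 113 FPKM in TGFB1, or 4.81-fold higher (log2 change 2.28 (SE 0.38, adjusted p = 0.00141)), the intermediate filament nestin (Nes) rose by 0.95 and Kcnmb1 by 0.92. Acta1 differed from Acta2 and Actg2 in level, and all of its libraries lay below all of theirs.

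**Figure D5:**
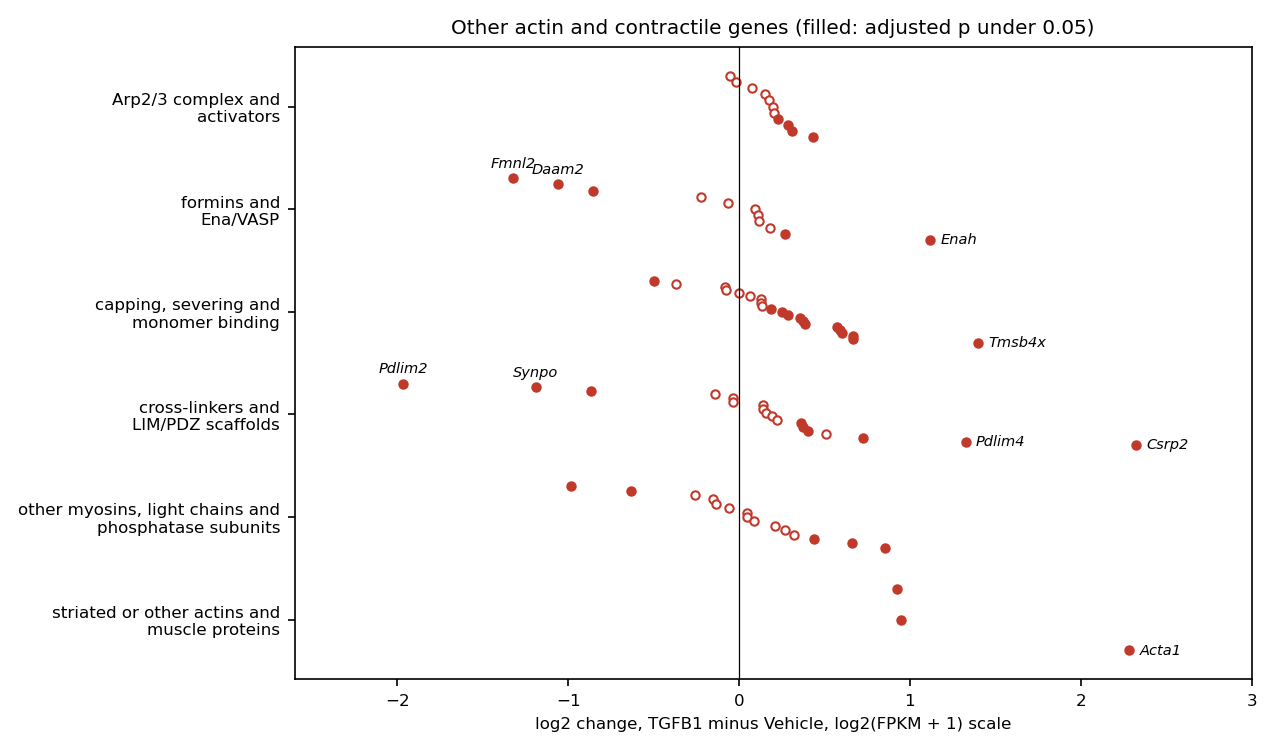
Points give the log2 change with TGFB1 in intact cultures of 79 of the 93 tested genes of the further list, by subgroup on the vertical axis, filled for an adjusted p under 0.05. Csrp2, Acta1, Tmsb4x, Pdlim4 and Enah lie farthest to the right, and Pdlim2, Fmnl2, Synpo and Daam2 farthest to the left.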

How the data were processed

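RNA was measured in 12 libraries, 3 in each of 4 groups. The labels' protocols name a column kit for RNA and a company that made libraries from polyadenylated RNA. The values are FPKM by gene symbol, deposited by the authors as a single table. The submitters' processing notes name kallisto 0.46.1, DESeq2 1.40.1 and the build mm9. How FPKM was computed and libraries were scaled is not given in the sources used here, and read counts were not used. The 42 genes, the further lists and the tests were chosen with earlier results of these data known.

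Values were taken as log2(FPKM + 1), which understates the change of low genes. Genes reaching 1 FPKM in 3 or more libraries were fitted in R 4.3.3 with limma 3.58.1 (group means over 12 libraries, variance trend, empirical Bayes, 8 residual degrees of freedom). P-values were adjusted over 12641 genes by Benjamini and Hochberg, and the threshold was 0.05. The comparisons were TGFB1 minus Vehicle, TGFB1_KO minus Vehicle_Tgfbr2KO, the interaction and Vehicle_Tgfbr2KO minus Vehicle. The scripts were tested on simulated data. Figures used Python 3.11.15 with matplotlib 3.10.9.

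Library values are given for called genes with a log2 change of at least 0.5 in size, for genes called in the interaction, and for Acta2, Actg2, Actb, Tagln, Cnn1, Myh11, Des and Vim. Of the list, 4 genes are counted with the rest but not reported singly here, nor drawn in the figures, and neither is a subgroup of 14 genes of the further list. Of each further list the 2 largest called rises and falls are named. Other genes with library values or markers were named after their values were seen. The labels share the replicate numbers 1 to 3 over the groups, and their descriptions carry 31, 121 and 123. Deviations from the group mean of same-numbered libraries had correlations of 0.391, 0.445 and 0.408 for the intact groups and of 0.588, 0.227 and 0.529 for the knockout groups, so the numbers pair libraries within a genotype. For Vehicle against Vehicle_Tgfbr2KO they were 0.336, -0.0867 and 0.412, and for TGFB1 against TGFB1_KO 0.337, 0.00945 and 0.276. As alternatives, a term for the replicate number was added (1 for each genotype, with its coefficients summing to 0, or 1 shared by all groups), the pseudocount was 0.1 or 0.5, the filter was dropped or set at 5 FPKM and libraries were scaled in 3 other ways. The variance trend was also dropped, only the compared groups were fitted, and single libraries were left out. Leaving out replicate 3 in all groups was chosen after seeing the data. Promoters are those of RefSeq on GRCm38.p6.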

Additional observations from a re-analysis of the deposited data

Results flagged for a closer look

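The TGFB1 response differed between knockout and intact cultures, by the interaction in limma, for 14 of the 42 genes, against 17.6% of all tested genes. As log2 differences (knockout response minus intact response), the thin-filament genes had -0.95 for Tpm1, -0.89 for Tagln, -0.83 for Smtn, -0.77 for Tagln2, -0.41 for Cnn3 and -0.28 for Cald1. Scaffold genes had -1.69 for Pdlim1, -0.72 for Pdlim5, -0.71 for Palld, -0.61 for Pdlim7 and -0.53 for Actn1. The motor gene Myh9 had -0.87 and the filament gene Vim -0.74. The only positive difference among the 14 was that of Ppp1r14a, at 2.40. The calls of Tagln2, Cald1, Actn1 and Pdlim5 are less firm. They were lost when single libraries were left out (adjusted p 0.0507 to 0.109) and without a filter.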

How the results depend on the processing

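With 1 replicate block shared by all groups, 5 of the 42 genes were called between Vehicle_Tgfbr2KO and Vehicle (2 up, 3 down) in place of 0, and 1897 of all tested genes in place of 157. The replicate block within each genotype called 4, and 1708 of all tested genes. Its p-values are too small between genotypes, since it takes the spread between replicate numbers out of the error. The shared block called 25 genes with TGFB1 in intact cultures, without Myh10, and 21 in the interaction, with Cnn1 (adjusted p = 0.0332). Leaving out 1 library at a time gave 0 to 1 calls between Vehicle_Tgfbr2KO and Vehicle, the 1 without TGFB1_KO replicate 3. Across genotypes, same-numbered libraries correlated for replicates 1 and 3 (0.276 to 0.412) but not for replicate 2 (-0.0867 and 0.00945). Why the shared block changed the calls between genotypes was not tested. For TGFB1 minus Vehicle the 24 alternatives gave 15 to 26 called genes (19 as reported), with 15 to 23 when 1 library was left out. With 1 library left out the interaction gave 10 to 15 (14 as reported), and it gave 10 to 21 otherwise. TGFB1_KO minus Vehicle_Tgfbr2KO gave 0 in all 24, but without TGFB1_KO replicate 3 the log2 change of 29 of the 42 genes moved by more than its standard error, and without replicate 3 in all groups that of 19. The further list gave 36 to 56 (44 as reported). Without a filter, Actg2, Cnn1, Flna and Myl6 were also not called with TGFB1. The 36 differences in family shares (18 shares in 2 comparisons) were also computed with single libraries left out. With 3 libraries in a group, leaving 1 out cannot move a mean by as much as the group's SD. Moves smaller than the spread between libraries were thus certain beforehand and say nothing on how stable the shares are. The replicate block changed no call of the genes reported singly beyond those given with the results, apart from Ppp1r14a between genotypes under the shared block (adjusted p = 0.0341). The interaction was not fitted on only the compared groups, since it uses all 4. Where 1 library was left out, the remaining ones share the pooled spread. Depth is known only relative to 1 library, so no counting error can be given. Log2 changes had a median standard error of 0.11 over all tested genes.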

Other observations

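In the knockout cultures TGFB1 changed none of the 93 tested genes of the further actin and contractile list past the threshold by limma, and 5 had an unadjusted p under 0.05. Log2 changes there ran from -0.49 to 0.67. The difference between the responses passed for 30 of them, 22 lower and 8 higher in the knockout (23.7% and 8.60%, against 9.26% and 8.38% of all tested genes). The monomer-binding thymosin Tmsb4x had a log2 difference of -1.27 (SE 0.12, adjusted p = 0.000118), the LIM protein Csrp2 -1.90 (SE 0.23, adjusted p = 0.000551) and the skeletal actin Acta1 -2.78 (SE 0.54, adjusted p = 0.00656). Pdlim2, which fell in intact cultures, had 2.19 (SE 0.21, adjusted p = 0.00014). Tmsb4x was listed at 2426, 2477 and 2562 FPKM in Vehicle_Tgfbr2KO and 2750.5, 2931 and 2488 FPKM in TGFB1_KO, and Acta1 at 46.0, 32.6 and 61.1 FPKM in Vehicle_Tgfbr2KO and 48.9, 33.1 and 19.7 FPKM in TGFB1_KO. Both overlapped between the knockout groups.

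Without added TGFB1, Csrp2 was the only gene of the 93 called between knockout and intact cultures, against 1.24% of all tested genes. With the replicate block 11 were called, 4 up and 7 down, against 1708 of all 12641 tested genes, 789 up and 919 down. The block's p-values are too small for a comparison between genotypes, as said above. Csrp2 was listed at 84.7, 64.1 and 86.0 FPKM in Vehicle and 28.2, 34.5 and 36.1 in Vehicle_Tgfbr2KO, a log2 difference of -1.22 (SE 0.16, adjusted p = 0.0249) with no overlap. With TGFB1 the knockout cultures had 38.5, 56.1 and 39.8 FPKM, below every Vehicle library.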
